A study of Mus musculus with 6 samples.

Results

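The spindle checkpoint and the anaphase promoting complex (APC/C) were followed through 10 genes: Bub1, Bub1b, Bub3, Mad2l1, Ttk, Cdc20, Fzr1, Ube2c, Pttg1 and Espl1. They were chosen by name, with earlier results of these data known, and read from the probe sets of an Affymetrix array annotated with exactly 1 of these symbols. All 10 were found among the 18193 genes measured, on 22 probe sets. Each gene was read from its main probe set, the one with the highest mean over the arrays, and the 12 other probe sets of the 6 genes that had several are given beside it.

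The cells were mPAC L20, a mouse pancreatic duct line, and every sample also carried an adenovirus that drives Neurog3, which commits pancreatic progenitors to endocrine fates, from a CMV promoter. A hairpin virus was added before it, each virus at a multiplicity of infection of 40. Its hairpin was scrambled in 3 samples (shControl) and directed at the transcription factor Atoh8 in the other 3 (shAtoh8), with 1 array per sample. Cells were cultured for 44 to 46 h after infection, and the labels describe the replicates, numbered 1 to 3 in each group, as independent experiments. Both groups therefore share a hairpin virus, the Neurog3 virus and the cell line, and each rests on 1 hairpin virus. The series title names the cell cycle genes as altered.

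When chromosomes are not yet attached to the spindle, the kinase Ttk starts a signal at the kinetochore that gathers Bub1, Bub1b, Bub3 and Mad2l1. Mad2l1, Bub1b and Bub3 then hold Cdc20, the mitotic activator of the APC/C, in an inactive assembly. When the last chromosome attaches, Cdc20 is released and the APC/C, fed with ubiquitin by the conjugating enzyme Ube2c, marks securin (Pttg1) and the mitotic cyclins for destruction, which frees separase (Espl1) to cut cohesin. Fzr1, also called Cdh1, replaces Cdc20 as the activator at the end of mitosis and in G1. Many of these genes are transcribed mainly in G2 and mitosis.

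Promoter letters are shown for 5 of the genes because the genes differ in how far they were from shControl while some letters are shared. The sequences are the 120 bases before the annotated start, from RefSeq on GRCm38.p6, written 5′ to 3′ on the strand of the gene. Capitals mark TTTGAA or TTCGAA, the letters of the cell cycle genes homology region (CHR) that the cell cycle repressor complex DREAM is known to bind, and CCAAT, the box bound by NF-Y, on either strand, so that TTCAAA and ATTGG are the same letters read on the other strand.
Cdc20, chr4:118437344-118437463, minus strand: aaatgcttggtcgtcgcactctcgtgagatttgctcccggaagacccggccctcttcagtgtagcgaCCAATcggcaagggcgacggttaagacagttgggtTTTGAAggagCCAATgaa
Ube2c, chr2:164769809-164769928, plus strand: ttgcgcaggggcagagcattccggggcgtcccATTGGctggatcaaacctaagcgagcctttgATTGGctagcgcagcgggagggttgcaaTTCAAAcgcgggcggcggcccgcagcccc
Bub1, chr2:127831860-127831979, minus strand: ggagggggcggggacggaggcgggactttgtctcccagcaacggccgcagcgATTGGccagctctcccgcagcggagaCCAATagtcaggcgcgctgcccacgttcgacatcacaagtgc
Bub3, chr7:131560250-131560369, plus strand: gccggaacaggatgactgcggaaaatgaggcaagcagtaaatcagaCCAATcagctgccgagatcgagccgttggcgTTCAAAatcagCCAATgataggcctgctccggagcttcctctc
Fzr1, chr10:81378371-81378490, minus strand: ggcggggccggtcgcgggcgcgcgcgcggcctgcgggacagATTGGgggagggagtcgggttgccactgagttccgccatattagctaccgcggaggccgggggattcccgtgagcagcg

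Over the whole promoter window, 250 bases before to 50 after the start, CHR letters stood in 7 of the 10 genes and in 19.2% of all 32851 promoter windows searched. CCAAT stood in 8 of 10 and in 37.4% of all windows, and both kinds of letters in 7 of 10 and in 7.52%. TTCGAA reads the same on both strands and was counted once, and 2 of the 6 CCAAT boxes of Ube2c overlap each other. In Cdc20 the CHR letters begin 18 bases before the start, in Ube2c 29, in Espl1 27 and in Bub3 43 bases before it. Bub1b holds them at 2 places, beginning 188 bases before the start and 41 bases into the transcribed part. In Bub1 and Ttk they begin 15 and 8 bases into the transcribed part. Mad2l1 and Pttg1 held neither kind of letters in the window, and Fzr1 held CCAAT without CHR letters. Such matches describe the sequence, and no binding was measured.

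Median log2 signals of the arrays were 5.49 to 5.56. The shAtoh8 replicate 2 array stood apart in its control probe sets, where the spiked-in transcripts averaged 9.28 and those of the other arrays 9.67 to 9.89. On it the actin probe set at the 3′ end exceeded the one at the 5′ end by 0.354, and elsewhere by 0.107 to 0.202. Atoh8, the gene the hairpin targets, read 8.75, 8.29 and 7.52 in shControl and 7.83, 7.90 and 7.37 in shAtoh8, in groups that overlap, and did not pass the test (limma adjusted p = 0.573, and 0.157 with the replicate block). The duct keratins Krt8, Krt18 and Krt19 read 13.3 to 13.9 on every array. Over the whole duct list the gene means ran from 3.71 to 13.9 (median 9.98). Over the mesenchymal list they ran from 3.58 to 13.8 (median 5.17). None of the 10 measured duct markers, 6 acinar, 7 endocrine, 8 mesenchymal and 5 leukocyte or endothelial markers passed the test without the block. Of all genes, 1.15% passed it. With the block, 2 of the 36 markers fell, the epithelial adhesion gene Epcam (-0.73) and the islet peptide Iapp (-1.78). Of all genes, 2.75% fell in that fit and 4.67% passed in either direction. The shControl arrays gave mean levels of 9.84 to 9.91 for the duct list and 5.77 to 6.16 for the endocrine list, and the shAtoh8 arrays gave 9.69 to 9.81 and 5.34 to 5.89. The part of these markers in the results below was not tested. The arrays carry no detection call, so absence of a marker could not be read.

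Of the 10 genes, 9 were lower in every shAtoh8 array than in any shControl array, and Bub3 alone was not. Non-overlap in that direction was found for 11.4% of all genes, in the other direction for 12.6% and in either for 24.0%. In limma without a block, 0 of the 10 passed an adjusted p of 0.05 over all 45037 probe sets, where 1.15% of genes passed, 0.638% lower and 0.517% higher. At an unadjusted p under 0.05 the same test gave 9 of 10 lower and 0 higher, against 8.82% and 8.72% of all genes. Arrays of the same replicate number deviated together from their group means over all probe sets, so the numbers were taken to pair the arrays. With the replicate number as a block, 5 genes fell (Bub1, Bub1b, Mad2l1, Cdc20 and Ube2c) and 0 rose, where 4.67% of all genes passed, 2.75% falling and 1.92% rising. That count changed with the replicates used: with the block it was 0 without both arrays of replicate 1, 8 without those of replicate 2 and 0 without those of replicate 3. Over all 18193 genes the same refits called 0, 966 and 0, so the counts of 0 are not particular to the 10 genes. The median difference of the 10 genes was -0.85 (log2), beside 0.01 for all genes. In a bulk culture, fewer dividing cells and less RNA per dividing cell cannot be told apart.

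**Figure D1:**
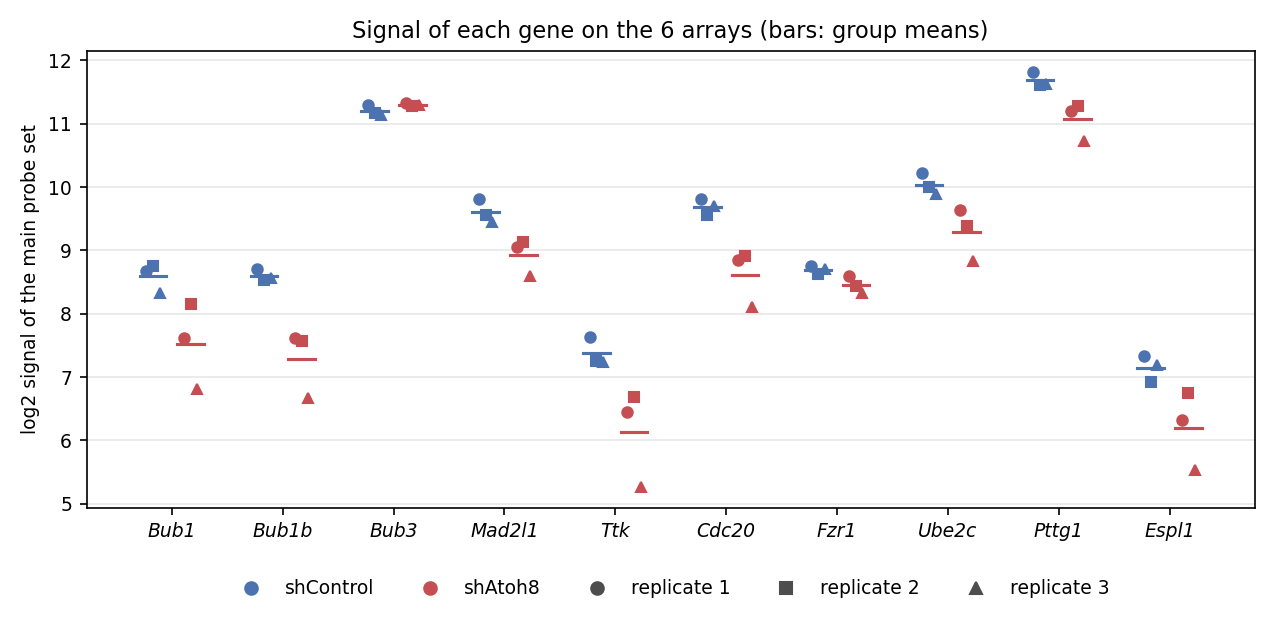
Log2 signal of the main probe set of each gene (vertical axis) on the 3 shControl arrays (blue) and the 3 shAtoh8 arrays (red), with marker shapes for the replicate number and horizontal bars for group means. In 9 genes all red points lie below all blue points and the replicate 3 array of shAtoh8 is the lowest, while the groups of Bub3 overlap. Heights of different genes come from different probe sets and are not comparable.

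Among the checkpoint kinases, Bub1, which marks the inner centromere and brings other checkpoint proteins to the kinetochore, read 8.67, 8.76 and 8.33 in shControl and 7.61, 8.15 and 6.81 in shAtoh8. The groups did not overlap, although the replicate 2 array of shAtoh8 came within 0.2 of the lowest shControl array. The log2 difference was -1.07 ± 0.31 (SE, n = 3 per group), or 2.09-fold lower, with an adjusted p of 0.179 without and 0.0375 with the block. Ttk, the kinase that starts the checkpoint signal, read 7.63, 7.25 and 7.24 in shControl and 6.45, 6.69 and 5.27 in shAtoh8. Its spread within shAtoh8 (SD 0.76) was the widest of the 10 genes. The difference was -1.24 ± 0.35 (SE), 2.36-fold, and it passed neither without the block (adjusted p = 0.165) nor with it (0.0566).

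Bub1b encodes BubR1, the checkpoint subunit that binds Cdc20 and blocks the APC/C. It read 8.70, 8.54 and 8.56 in shControl, within a range of 0.2, and 7.62, 7.57 and 6.67 in shAtoh8. All shAtoh8 arrays lay at least 0.9 below the lowest shControl array. The difference of -1.32 ± 0.24 (SE), 2.49-fold, was the most negative of the 10, with an adjusted p of 0.0650 without and 0.0294 with the block. The other bright probe set of Bub1b gave -1.53 ± 0.27 (adjusted p = 0.0565, and 0.0253 with the block). Mad2l1, the Mad2 protein that clamps onto Cdc20, read 9.81, 9.56 and 9.45 in shControl and 9.06, 9.13 and 8.60 in shAtoh8. Its difference was -0.67 ± 0.16 (SE), 1.59-fold, with an adjusted p of 0.119 without and 0.0369 with the block.

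Bub3, the propeller-shaped partner that carries Bub1 and Bub1b to the kinetochore, had other values. It read 11.29, 11.17 and 11.13 in shControl and 11.33, 11.28 and 11.30 in shAtoh8, with overlapping groups. The difference was 0.10 ± 0.08 (SE), with a 95% interval of -0.08 to 0.29 and an adjusted p of 0.681 (0.603 with the block). That interval leaves out changes as large as those of its partners. The next brightest probe set of Bub3 gave 0.17 ± 0.13. Taken within each array, the log2 ratio of Bub1 to Bub3 was -2.62, -2.42 and -2.80 on the shControl arrays but -3.71, -3.13 and -4.49 on the shAtoh8 arrays. The groups of this ratio did not overlap and its mean moved by -1.17 (exact permutation test, two-sided, p = 0.1, the smallest that 3 arrays against 3 allow). With the probe sets of each gene averaged, which mixes in dim ones, the shift was -0.59 (exact p = 0.2).

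**Figure D2:**
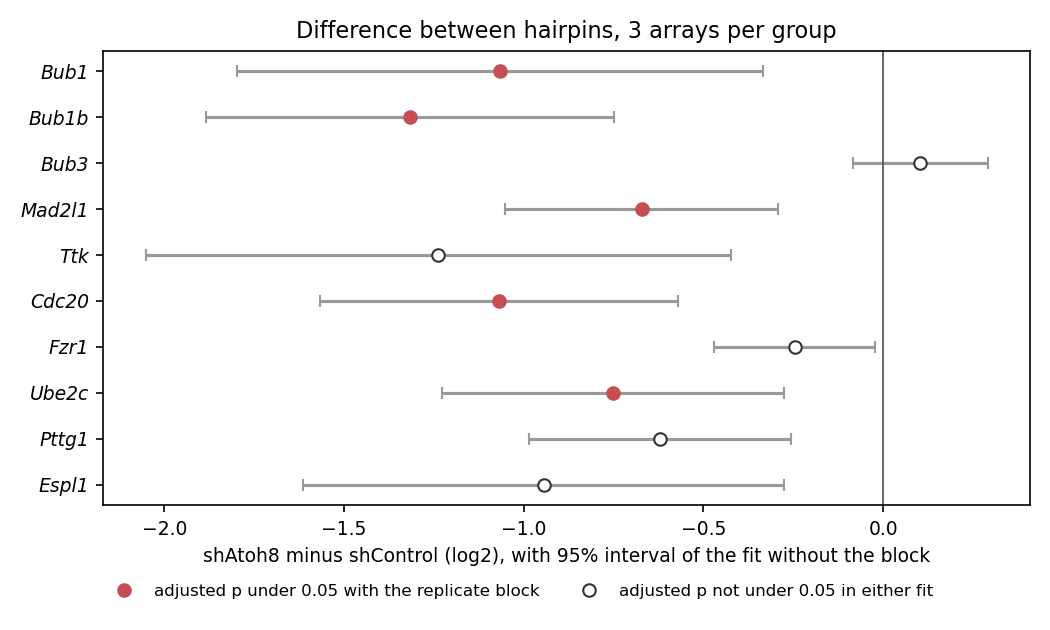
Log2 difference of shAtoh8 minus shControl for each gene (horizontal axis), from 3 arrays per group, with 95% intervals of the fit without the block. Filled red points mark the 5 genes that passed with the replicate block, and the interval of Bub3 is the one that includes 0.

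The APC/C has 2 interchangeable activators, whose differences were of unlike size. Cdc20 read 9.81, 9.55 and 9.69 in shControl and 8.84, 8.91 and 8.10 in shAtoh8, with a gap between the groups. The difference was -1.07 ± 0.21 (SE), 2.10-fold, with an adjusted p of 0.0747 without and 0.0385 with the block. The main probe set carries a suffix (_x) that marks probes able to cross-hybridise. The probe set of Cdc20 without that mark gave -1.07 ± 0.17 and passed without the block too (adjusted p = 0.0493, and 0.0292 with it). It did not pass when the adjustment left out all probe sets with the suffixes _x, _s or _a (0.0518). A further, dimmer one gave -0.60 ± 0.13 (0.0905 and 0.0810).

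Fzr1, the activator of late mitosis and G1, read 8.76, 8.62 and 8.71 in shControl and 8.59, 8.44 and 8.33 in shAtoh8. The groups did not overlap but lay within 0.5 of each other. The difference was -0.25 ± 0.09 (SE), with a 95% interval of -0.47 to -0.02 and an adjusted p of 0.305 (0.208 with the block). Within each array the log2 ratio of Cdc20 to Fzr1 stood at 1.06, 0.93 and 0.98 under shControl, and under shAtoh8 at 0.25, 0.47 and -0.23. Its mean moved by -0.82, without overlap of the groups (exact permutation test, two-sided, p = 0.1, the smallest possible). Within replicate numbers 1, 2 and 3 that shift was -0.80, -0.46 and -1.21.

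Ube2c, the enzyme that places the initial ubiquitin on APC/C targets, read 10.22, 10.01 and 9.88 in shControl and 9.64, 9.38 and 8.83 in shAtoh8. The groups did not overlap. Its difference was -0.75 ± 0.20 (SE), 1.68-fold, with an adjusted p of 0.153 without and 0.0349 with the block.

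Downstream of the APC/C, securin and separase form an inhibitor and its protease. Pttg1, securin, read 11.82, 11.62 and 11.62 in shControl and 11.20, 11.29 and 10.72 in shAtoh8. The difference was -0.62 ± 0.15 (SE), 1.54-fold, and it missed the threshold without the block (adjusted p = 0.128) and with it (0.0547). The other bright probe set of Pttg1 gave -0.76 ± 0.17 and passed with the block (0.104 without and 0.0409 with it). Both carry suffixes (_s and _a) that mark probes shared between transcripts, and the 1 probe set without a suffix, dim at a mean of 4.96, gave -0.07 (adjusted p = 0.803). Espl1, separase, read 7.33, 6.93 and 7.19 in shControl and 6.32, 6.75 and 5.54 in shAtoh8. Here the replicate 2 array of shAtoh8 lay within 0.2 of its shControl partner. The difference was -0.94 ± 0.28 (SE), 1.92-fold, and passed in neither fit (adjusted p = 0.190, and 0.115 with the block).

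Of the 12 other probe sets, 7 had a mean below the median of all probe sets (5.52), at 3.84 to 4.96. These belong to Bub1, Bub1b, Bub3, Ttk and Pttg1. Their differences were -0.21 to 0.03, and the lowest adjusted p among them was 0.766. The bright probe sets of Bub1, Bub1b, Ttk and Pttg1 were therefore not matched by these dim ones of the same genes.

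Within replicate numbers the same 9 genes were lower in shAtoh8 in every pair, which their lack of overlap between groups already fixes. Of all genes, 21.5% were lower in every pair. The median difference of the 10 genes was -0.86 in replicate 1, -0.49 in replicate 2 and -1.29 in replicate 3, against -0.01 to 0.03 for all genes. Replicate 3 gave the most negative difference in all 9 genes, and replicate 2 the least negative in 7. In replicate 3 Ttk differed by -1.97, Bub1b by -1.89, Espl1 by -1.65, Cdc20 by -1.59 and Bub1 by -1.53. In replicate 2, whose shAtoh8 array had the weaker spikes, Espl1 differed by -0.18, Pttg1 by -0.33 and Mad2l1 by -0.43, while Bub1b still differed by -0.97. Any relation of these differences to the spikes was not tested. Bub3 was higher in all 3 pairs, by 0.03, 0.11 and 0.17. The Atoh8 probe set followed another order, with differences of -0.92, -0.39 and -0.15 in replicates 1, 2 and 3. With 3 pairs no relation between Atoh8 and the 10 genes can be tested.

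**Figure D3:**
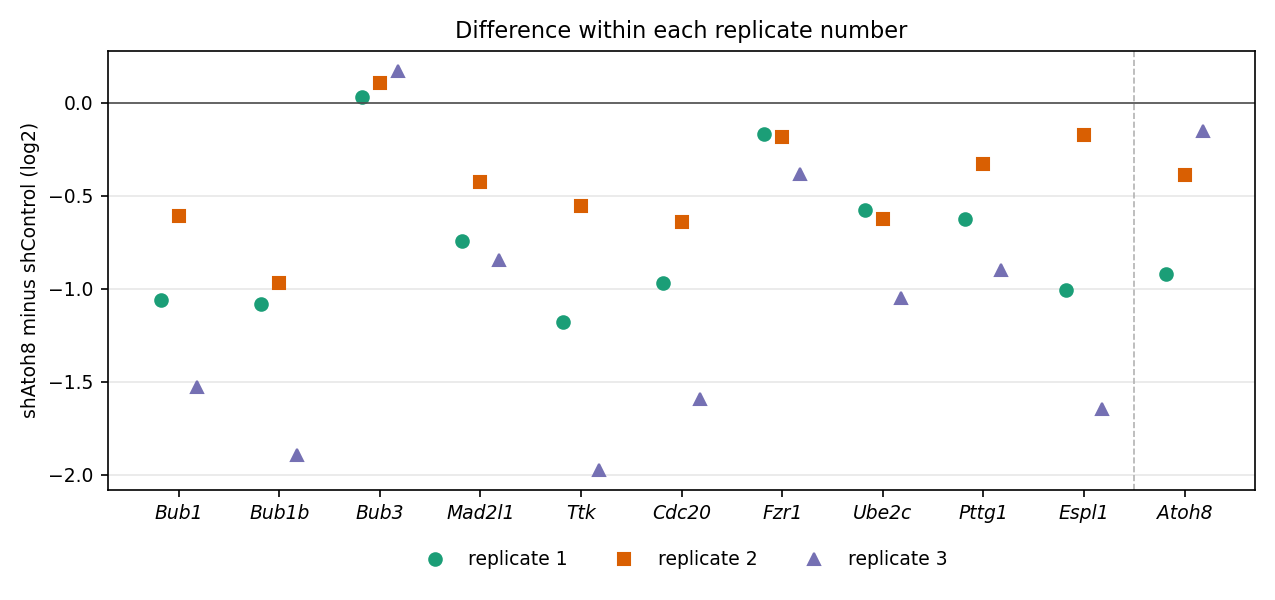
Log2 difference of shAtoh8 minus shControl within each replicate number (vertical axis) for the 10 genes and, right of the dashed line, Atoh8. The replicate 3 points (triangles) are the lowest in 9 of the 10 genes, while for Atoh8 the replicate 1 point is the lowest, at -0.92.

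The replicate 3 array of shAtoh8 was also the lowest of all 6 arrays in these 9 genes. Without it the differences were bound to be smaller and to keep their sign. They were -0.71 for Bub1, -0.80 for Ttk, -0.61 for Espl1, -0.81 for Cdc20 and -1.01 for Bub1b, the last with an adjusted p of 0.0406. Without the replicate 2 array they were larger, at -1.38, -1.51, -1.22, -1.22 and -1.46.

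The core of the APC/C was described by its 14 subunits. Of these, 0 passed in limma without the block, where 1.15% of all genes passed, and 0 with it, where 4.67% did. At shares that small, 0 of 14 says little about the subunits. Differences were negative in 7 and positive in 7, and their median was 0.03, beside 0.01 for all genes. At an unadjusted p under 0.05 in limma 1 was lower and 1 higher, shares near the 8.82% and 8.72% of all genes. Anapc11, the catalytic RING subunit, read -0.36 ± 0.11 (SE, adjusted p = 0.210) and Anapc16 0.24 ± 0.09 (0.320). Cdc16 read 0.10 and Anapc4 -0.07. Anapc1, the largest scaffold subunit, read -0.18 ± 0.10 on its main probe set, but its other bright ones read -0.40, -0.35 and -0.45, the last of these passing with the block (adjusted p = 0.0656 without and 0.0486 with it).

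Further genes of the checkpoint and regulators of the APC/C were listed next. Of 18 measured (19 listed), 2 fell without the block, where 0.638% of all genes fell, and 6 with it, where 2.75% fell. None rose in either fit (0), and the median was -0.14. At an unadjusted p under 0.05 in limma 7 were lower and 1 was higher, where 8.82% and 8.72% of all genes were. Mad2l2, a Mad2 relative also known as REV7 that serves in translesion synthesis and can inhibit the APC/C, read 9.03, 8.88 and 9.28 in shControl and 7.85, 8.15 and 7.54 in shAtoh8. The groups lay clearly apart, and it fell by 1.22 ± 0.17 (SE, adjusted p = 0.0378). Knl1, the kinetochore scaffold to which Bub1, Bub1b and Bub3 are recruited, read 6.17, 6.21 and 6.43 in shControl and 5.66, 5.51 and 5.39 in shAtoh8. It fell by 0.75 ± 0.11 (adjusted p = 0.0391). The call of Knl1 was lost without any 1 of the 6 arrays (adjusted p = 0.0734 to 0.153). That of Mad2l2 held without the replicate 2 array of shAtoh8 (0.0372) and was lost without any other array (0.0859 to 0.132). Over all genes, 210 were called with every array and 0 to 117 with 1 left out, so such losses are not particular to these genes.

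With the block, Trip13 (-0.92), the ATPase that takes Mad2 assemblies apart, Kntc1 (-1.08) and Spdl1 (-0.77), which work with dynein at kinetochores, and Fbxo5 (-0.93) also fell, named here because they passed. Fbxo5 is Emi1, the inhibitor that keeps the APC/C off before mitosis. It read 7.93, 7.54 and 7.09 in shControl and 7.02, 6.67 and 6.08 in shAtoh8, so the groups were separated by less than 0.1. Its differences within replicate numbers were close to one another, at -0.91, -0.87 and -1.01, and its adjusted p was 0.191 without and 0.0162 with the block. The kinetochore protein Zwint (0.23 ± 0.08), the Mad2 antagonist Mad2l1bp (0.20 ± 0.10) and the Bub3 chaperone Zfp207 (0.15 ± 0.11) had positive differences that did not pass. The next brightest probe sets of Zwint gave -0.02, 0.08 and -0.02, and that of Zfp207 gave 0.45.

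The genes of proteins that the APC/C destroys were read at the RNA level. Of 27 measured (28 listed), 1 fell without the block, the cytokinesis scaffold Anln, where 0.638% of all genes fell. With the block 18 fell, where 2.75% of all genes fell, and 0 rose in either fit. That count of 18 became 0, 21 and 0 without both arrays of replicates 1, 2 and 3. Over all genes the same refits called 0, 966 and 0. Anln read 9.75, 9.96 and 10.18 in shControl and 8.70, 8.86 and 8.23 in shAtoh8 (adjusted p = 0.0346), and its call too held only without the replicate 2 array of shAtoh8 (0.0406; 0.0716 to 0.152 without each other array). With 1 array left out, 0 to 117 of all genes were called, where 210 were with every array. The median of the 27 was -1.02, and 24 had a negative difference, as did 8526 of all 18193 genes. Among the 18 were the cyclins Ccna2 (-1.02) and Ccnb2 (-1.15), the kinases Plk1 (-1.16), Aurka (-1.17) and Aurkb (-1.41), the spindle assembly factor Tpx2 (-1.34) and the replication inhibitor Gmnn (-0.91). The 3 members with positive values, Cdc25a (0.29 ± 0.11), Id2 (0.18 ± 0.24) and Skp2 (0.00 ± 0.15), did not pass. Their next brightest probe sets gave 0.09, 0.20 and -0.12.

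Cohesin is the ring that separase cuts. Of 16 genes of the ring and its regulators, 2 fell with the block, where 2.75% of all genes did. In limma without the block 0 passed, where 1.15% of all genes did. At an unadjusted p under 0.05 in limma 6 were lower, against 8.82% of all genes, and 1 was higher, a share near the 8.72% of all genes. The median was -0.10. The ring and its STAG subunits read -0.12 for Smc1a, -0.30 for Smc3, -0.07 for Rad21, -0.04 for Stag1 and 0.03 for Stag2, and none passed. The 2 that fell with the block were Sgo1 (-0.83 ± 0.25, adjusted p = 0.191 without and 0.0226 with it), which shields centromeric cohesin, and Esco2 (-1.0 ± 0.30, 0.189 and 0.0409), which acetylates cohesin in S phase. Sgo2a, a related protector, read -1.19 ± 0.36 (0.188 and 0.0526). The main probe set of Esco2 is dim, at a mean of 4.76 where the median of all probe sets is 5.52. Its other probe set gave -0.13 (limma adjusted p = 0.718 without and 0.597 with the block). The other probe set of Sgo1, at a mean of 5.43, gave -1.07 (0.111 and 0.0160). The cohesin deacetylase Hdac8 (0.23 ± 0.07), the loader subunit Mau2 (0.11) and Esco1 (0.09) had positive values that did not pass.

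**Figure D4:**
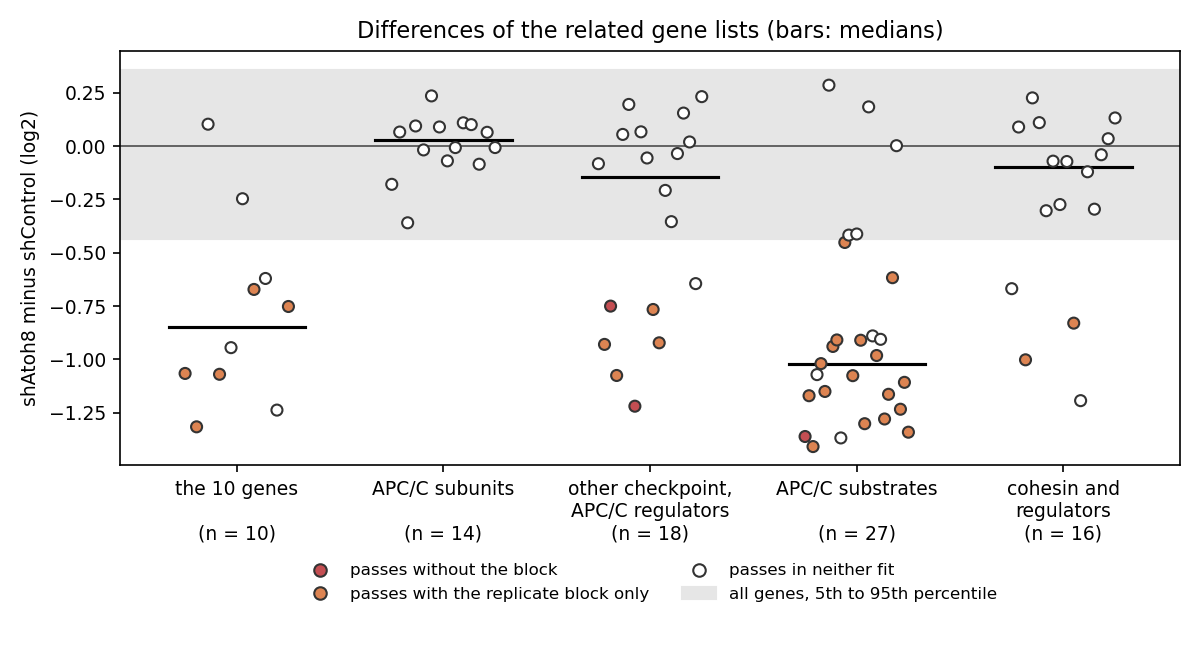
Log2 difference of shAtoh8 minus shControl (vertical axis) for the 10 genes and the related lists, 1 point per gene, with bars at the medians. Fill shows whether a gene passed without the block, with the replicate block only, or in neither fit. The grey band runs from the 5th to the 95th percentile of all genes, -0.43 to 0.36, and their full range was -1.98 to 2.62. The median is -0.85 for the 10 genes, 0.03 for the APC/C subunits and -1.02 for the APC/C substrates.

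The genes whose pattern over the 6 arrays lay nearest to the mean of the 10 were Tifa, Csrp2, Cenpq, Pole and Nsun3. Nearness was the root mean square difference (log2) between profiles centred on their own means, and it was 0.0458, 0.0487, 0.0494, 0.0694 and 0.0782. Of the 10 genes themselves, Mad2l1 lay nearest to their mean (0.0957) and Bub3 farthest (0.502). The 5 genes differed between groups by -0.84, -0.75, -0.79, -0.68 and -0.69. This is a description over 6 arrays of genes chosen for their likeness.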

How the data were processed

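RNA from 6 samples was hybridised to Affymetrix arrays as biotin-labelled cRNA. The values deposited are signals on the log2 scale, 1 per probe set, which the authors made with RMA in the affy package, per the submitters' processing notes. Their versions and a genome build are not named in the labels. RMA quantile-normalises arrays, so a shift of most genes one way would have been removed. Of 45101 probe sets, 64 controls were left out and 45037 tested without a filter. Names came from the platform annotation: 34945 probe sets had 1 symbol, 932 several and 9160 none. Comparing Entrez IDs with a RefSeq table changed 0 symbols.

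The 2 groups were compared by lmFit and eBayes of limma 3.58.1 (R 4.3.3), two-sided, with Benjamini-Hochberg adjustment over all probe sets and a threshold of 0.05; SE is limma's moderated error. The replicate block was an alternative. Deviations from group means correlated at 0.407, 0.187 and 0.433 between arrays of the same number and at -0.351 to 0.0292 otherwise. Ratios within arrays were tested by exact permutation in scipy 1.17.1. The fit without the block was checked on simulated arrays with independent noise and no pairing. That check does not cover the block fit or the call of any gene here. Precision is limited by the 6 arrays.

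Of the related lists, genes were named that passed without the block, or else the 4 with the smallest p. Up to 3 of opposite sign to the list's median were added. Outside that rule, genes that passed with the block were named too, of the APC/C substrates only some of them. The subunits of the cohesin ring were named for their role. The 10 genes, the lists and the tests were chosen with earlier results of these data known.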

Additional observations from a re-analysis of the deposited data

How the results depend on the processing

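The sign of each of the 10 differences was kept in all 170 refits of a gene (17 alternatives each), but sizes moved by over 1.5 times in some. Many of these signs were fixed in advance. For the 9 genes whose groups did not overlap, leaving out arrays could not reverse the sign. The block, the trend and robust variance model and the brighter probe sets left the estimates of the 10 genes unchanged. Without probe sets that carry a suffix _x, _s or _a, Pttg1 went from -0.62 to -0.07 (limma adjusted p = 0.825), since only its dim probe set is left, and Bub3 from 0.10 to 0.17. That refit also drops the _a probe set of Pttg1 (mean 9.70), which gave -0.76, so it does not isolate cross-hybridisation. With probe sets averaged, Bub1 went from -1.07 to -0.55, Ttk from -1.24 to -0.73 and Bub3 to 0.03. Without the replicate 3 array of shAtoh8, Bub1, Ttk and Espl1 read -0.71, -0.80 and -0.61; with the block and without both replicate 3 arrays Espl1 read -0.59 and Bub3 0.07, and without the shControl one Bub3 read 0.07. The count of the 10 genes that fell was 0 as reported; it was 5 with the replicate block, 1 with brighter probe sets only, 2 with the probe sets of each gene averaged, 2 at an adjusted p under 0.1, 0 to 1 with 1 array left out, and with the replicate block 0, 8 and 0 without both arrays of replicates 1, 2 and 3. The related lists gave 3 falls of 75 as reported, 26 with the replicate block, 8 with probe sets averaged, 13 at an adjusted p under 0.1, 0 to 3 with 1 array left out, and with the block 0, 32 and 0 without both arrays of replicates 1, 2 and 3. Over all genes the count called moved from 210 to 849 with the block, 459 with probe sets averaged (adjusted over genes), 324 with brighter probe sets, 339 with array weights, and 0 to 117 with 1 array left out. With the block it was 0, 966 and 0 without both arrays of replicates 1, 2 and 3, so the counts of 0 above held for all genes. Median centring, a further quantile normalization, the trend and robust variance model and array weights each left both list counts as reported. So did dropping probe sets with a suffix _x, _s or _a, though it left 70 of the 75 related genes. Some genes were then read from other probe sets. The cause of these changes was not tested. The shifts of Cdc20 minus Fzr1 and Bub1 minus Bub3 stayed negative in every alternative, from -0.98 to -0.63 and from -1.49 to -0.59. Leaving out an array could not reverse them, since the groups of both ratios did not overlap. Paired signs cannot go below an exact p of 0.25. The block changed no other call among the 10 genes than the 5 named.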
